A study of Mus musculus with 4 samples.

Results

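The genes described here are the 10 that encode the alpha-beta T cell receptor complex and the first signalling proteins it engages: Trac, Trbc1, Trbc2, Cd3d, Cd3e, Cd3g, Cd247, Lck, Zap70 and Lat. They were taken by gene name, and all 10 were found among the 31053 genes of the count tables. The libraries hold donor T cells from the spleens of lethally irradiated (900 cGy) BALB/c recipients in which acute graft-versus-host disease had been induced 8 days earlier. The 4 libraries differ in the regulatory T (Treg) cells that the mice received together with T-cell-depleted bone marrow: Treg cells of CD226-/- mice (CD226KO), of TIGIT-/- mice (TIGITKO), of mice lacking both receptors (DKO) and of mice with both receptors (WT). Conventional CD4+ and CD8+ T cells, wild type throughout, followed 2 days after the Treg cells.

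All donors were on the C57BL/6 background. Treg donors carried Foxp3-GFP and were CD45.2+ CD45.1-, and the cells were sorted from spleen as CD4+ GFP+ CD25hi. Conventional donors were CD45.1+ CD45.2-, and the bone marrow came from CD45.1+ CD45.2+ wild-type mice. Living donor cells were sorted by H-2Kb and TCR beta, so every cell was selected for the receptor protein that these genes encode. Each library was a pool of 3, and each genotype had 1 library. The labels carry L003 for CD226KO and WT and L004 for TIGITKO and DKO, read here as sequencing lanes, so lane and TIGIT status cannot be told apart.

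Cells were classed by their antibody counts, as the log2 of CD45.1 over CD45.2. Treg-origin cells had a ratio under -0.6 and numbered 332, 462, 376 and 367 in the CD226KO, TIGITKO, DKO and WT libraries. Conventional cells had a ratio over 2.2 and were divided by their Cd4 and Cd8a plus Cd8b1 transcripts. There were 2600, 2902, 3415 and 2098 conventional CD8 cells and 3098, 3100, 2813 and 2750 conventional CD4 cells in the same order of libraries. Levels are counts of unique transcript molecules (UMIs) added up over the cells of a class in a library and given as counts per 1000000 UMIs (CPM). A level is therefore a share of UMIs and not a count per cell. Treg-origin cells held fewer UMIs per cell, with a WT median of 5372 against 9013 in conventional CD4 cells. A higher level thus need not mean more transcripts per cell, and levels per cell were not compared. The sums held 1747477 to 2305761 UMIs for Treg-origin cells, 29270701 to 39929802 for CD8 cells and 25441326 to 29267615 for CD4 cells. Error bars and intervals from counts hold counting error only. Foxp3, Ikzf2, Il2ra, Ctla4 and Tnfrsf18 together made up 1566 to 1605 CPM in Treg-origin cells and 319.6 to 379 CPM in conventional CD4 cells, so the Treg label held at the level of its markers. Between 23 and 36 cell barcodes were shared by any pair of libraries, at most 0.366% of the smaller one. Some Treg-origin sums held transcripts of other cells: 4 neutrophil genes summed to 4.58, 1506, 3.90 and 1717 CPM in CD226KO, TIGITKO, DKO and WT, Ighm reached 678 CPM in CD226KO, and 3 erythroid genes summed to 691, 11.9, 14.6 and 33.8 CPM. Their part in the results was not tested.

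A T cell recognises antigen with an alpha and a beta chain, each with a constant part, and neither chain can signal on its own. The CD3 gamma, delta and epsilon chains and the CD247 zeta chain carry the tyrosine motifs that do so. LCK, held by the CD4 and CD8 coreceptors, phosphorylates these motifs, ZAP-70 binds them and phosphorylates the adaptor LAT, and LAT gathers the proteins that lead to calcium, Ras and NF-kappa-B signals. Treg cells depend on the same receptor for their suppressive activity.

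The genes lie at few sites. On GRCm38 with the GENCODE vM21 annotation, the constant genes Trbc1 and Trbc2 lie on the plus strand of chromosome 6, at chr6:41538218-41539881 and chr6:41546730-41548352, with 6848 bases between them. Trac lies at chr14:54220521-54224206. Cd3g (chr9:44969572-44980431, minus strand), Cd3d (chr9:44981786-44987339, plus strand) and Cd3e (chr9:44998740-45009627, minus strand) form a cluster on chromosome 9, and the starts of Cd3g and Cd3d are 1355 bases apart. Cd247 lies at chr1:165788681-165877277, Zap70 at chr1:36761798-36782818, Lck at chr4:129548344-129573641 and Lat at chr7:126363824-126369570. All but the 3 constant genes are annotated as protein-coding genes, and the constant genes as T cell receptor constant genes.

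The near-identity of the beta constant genes limits how far their counts can be read apart, and their sequences show where they differ. In the GENCODE vM21 transcripts the coding parts are 518 bases each and differ at 23 positions, a 95.6% identity. Only 1 of the differences lies in the first coding exon of 375 bases, and 22 lie in the later 143 bases. The stretches after the coding part, which a 3′ library mostly reads, have 219 bases in Trbc1 and 174 in Trbc2 and share 49.3% of positions when aligned. The last 60 coding bases, 459 to 518 counted from the first coding base, hold 11 of the differences and are shown with the differing bases in capitals:
Trbc1: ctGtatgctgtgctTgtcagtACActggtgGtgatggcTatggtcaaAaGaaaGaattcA
Trbc2: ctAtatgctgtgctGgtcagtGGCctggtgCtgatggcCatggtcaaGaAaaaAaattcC
Reads wholly within a stretch that both genes share cannot be assigned to either. How such reads were counted is not given in the sources used here. The values of Trbc1 and Trbc2 apart are therefore uncertain, and their sum is given beside them.

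The question of the first comparison is how receptor genes of transferred Treg cells stand against those of conventional CD4 cells in the same mice. As shares of UMIs, Treg-origin cells had higher levels of Trac, Cd3d, Cd3e, Cd3g and Lat and a lower level of Cd247, by 1.13- to 1.37-fold. Trbc1, Trbc2, Lck and Zap70 did not pass the test. Of the 10 genes, 5 rose and 1 fell, against 21.5% of all 10770 genes tested that rose and 20.5% that fell, 41.9% in either direction. The median log2 fold change of the 10 genes was 0.13, that of all tested genes 0.0098. Here and below, p-values come from edgeR's quasi-likelihood test with the library as block over 4 libraries, adjusted by the Benjamini-Hochberg method over all genes tested, with a threshold of 0.05.

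**Figure D1:**
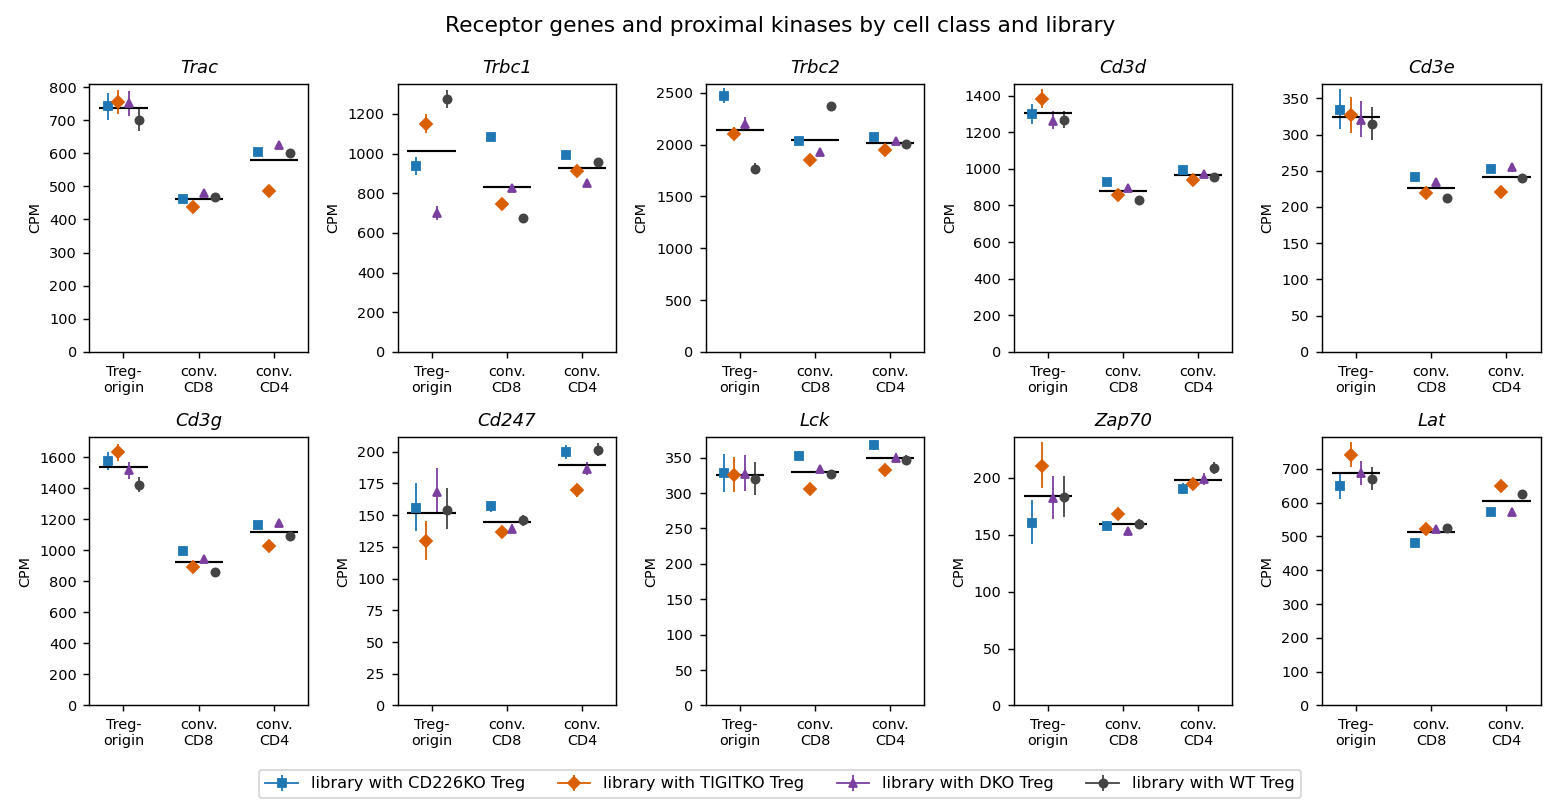
Level of each gene in CPM in Treg-origin, conventional CD8 and conventional CD4 cells. Each point is 1 library, named by the genotype of its Treg cells, with its exact 95% Poisson interval, and the line is the mean of 4 libraries. Trac, Cd3d, Cd3e and Cd3g in Treg-origin cells lie above both conventional classes in every library, while Trbc1 spreads from 699 to 1273 CPM among Treg-origin cells.

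Trac, the alpha constant gene, had 742, 754, 751 and 700.0 CPM in Treg-origin cells of the CD226KO, TIGITKO, DKO and WT libraries, against 604, 485, 625 and 600.3 CPM in conventional CD4 cells of the same libraries. The groups did not overlap, and the lowest CD4 value was that of TIGITKO. The log2 fold change was 0.34 with an SE of 0.055 and an SD of 0.19 over libraries (adjusted p = 2.39e-04).

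The beta constant genes behaved otherwise. Trbc1 had 936, 1151, 699 and 1273 CPM in Treg-origin cells of CD226KO, TIGITKO, DKO and WT and 993, 912, 852 and 959 CPM in CD4 cells, and the ranges overlapped with 2 of 4 libraries higher in Treg-origin cells (log2 fold change 0.086, SE 0.088, adjusted p = 0.471). Trbc2 had 2471, 2105, 2198 and 1769 CPM in Treg-origin cells and 2069, 1946, 2038 and 2005 CPM in CD4 cells, with a log2 fold change of 0.064, an SE of 0.048 and an adjusted p of 0.315. Without the WT library Trbc2 was called higher, at 0.14 (adjusted p = 0.0131). The sum of both genes was 3151 ± 226 CPM in Treg-origin cells and 2943 ± 90.6 CPM in CD4 cells (SD, n = 4 libraries each), a mean log2 difference of 0.096 with an SD of 0.089. It was higher in 4 of 4 libraries, for which the exact sign-flip permutation test gives its smallest possible two-sided p of 0.13.

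The 3 CD3 chains were higher in Treg-origin cells of every library. Cd3g, the gamma chain, had 1573, 1631, 1514 and 1421 CPM in Treg-origin cells of CD226KO, TIGITKO, DKO and WT, against 1164, 1029, 1175 and 1091 CPM in CD4 cells. Its log2 fold change was 0.45 (SE 0.041, adjusted p = 1.73e-06). Cd3d, the delta chain, had 1298, 1384, 1264 and 1268 CPM in Treg-origin cells and 994, 942, 974 and 955 CPM in CD4 cells, a log2 fold change of 0.42 (SE 0.035, adjusted p = 6.17e-07). None of these ranges overlapped. Cd3e, the epsilon chain that pairs with each of the other CD3 chains, had 334, 327, 320.1 and 314 CPM in Treg-origin cells and 252, 220.0, 254 and 239.6 CPM in CD4 cells, a log2 fold change of 0.41 (SE 0.051, adjusted p = 2.61e-05).

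Cd247 went the other way. It encodes the zeta chain, which carries most of the tyrosine motifs of the complex and is thought to be the last to join it. It had 156, 129, 168 and 154 CPM in Treg-origin cells of CD226KO, TIGITKO, DKO and WT, against 199.7, 169.6, 187 and 202 CPM in CD4 cells, and was lower in Treg-origin cells of every library (log2 fold change -0.33, SE 0.060, adjusted p = 5.97e-04). The lowest CD4 value, in TIGITKO, exceeded the highest Treg-origin value, in DKO, by little. With stricter antibody limits of -1.5 and 3 the log2 fold change of Cd247 was -0.034 (adjusted p = 0.777), so this call was lost, while Trac, Cd3d, Cd3e and Cd3g were at 0.55, 0.58, 0.59 and 0.66 and still passed.

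Because Cd3d, Cd3e and Cd3g rose together, the 250 bases before each RefSeq start are shown (GRCm38.p6, printed 5′ to 3′ on the strand of the gene), with matches to 4 short motifs in capitals on either strand. The motifs are the core of RUNX sites, TGTGGT, a common form of the E-box, CAGGTG, a common core of ETS sites, AGGAAG, and a form of the GATA site, AGATAA. No matches overlap in these windows. The Cd3e start of RefSeq lies inside the GENCODE gene given above, so the last 16 bases of its window are within that gene.
Cd3d, chr9:44981536-44981785, plus strand: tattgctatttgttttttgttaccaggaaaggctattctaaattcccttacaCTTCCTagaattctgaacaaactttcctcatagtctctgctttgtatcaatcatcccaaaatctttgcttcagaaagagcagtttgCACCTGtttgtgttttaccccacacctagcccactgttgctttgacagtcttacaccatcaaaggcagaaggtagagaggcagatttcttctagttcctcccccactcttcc
Cd3e, chr9:45009612-45009861, minus strand: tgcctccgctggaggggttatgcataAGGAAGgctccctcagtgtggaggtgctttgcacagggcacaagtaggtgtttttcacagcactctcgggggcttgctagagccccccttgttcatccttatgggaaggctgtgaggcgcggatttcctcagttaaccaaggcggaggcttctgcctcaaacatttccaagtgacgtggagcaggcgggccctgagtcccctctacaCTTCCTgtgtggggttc
Cd3g, chr9:44980432-44980681, minus strand: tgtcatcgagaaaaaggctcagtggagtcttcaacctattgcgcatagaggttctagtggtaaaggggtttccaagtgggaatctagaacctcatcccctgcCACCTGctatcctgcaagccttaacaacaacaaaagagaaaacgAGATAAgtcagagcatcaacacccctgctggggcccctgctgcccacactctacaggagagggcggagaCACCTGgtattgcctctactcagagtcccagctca
Cd3d held 1 E-box and 1 ETS match, Cd3e 2 ETS matches, and Cd3g 2 E-box matches and 1 GATA match. Across 32851 promoter windows of this length, 14.0% held the RUNX letters, 17.2% the E-box, 29.5% the ETS and 9.99% the GATA letters. The 7 genes with a promoter entry had 10 entries together, since Lck and Zap70 had more than 1. Of these 7 genes, 2 held the RUNX, 5 the E-box, 6 the ETS and 1 the GATA letters in at least 1 of their entries. These counts are by gene and the shares above by window, so the 2 cannot be set against each other directly. A match is a run of letters and not a bound site.

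Among the signalling proteins, Lat rose and the kinases did not pass the test. Lat had 648, 740.2, 688 and 669.6 CPM in Treg-origin cells of CD226KO, TIGITKO, DKO and WT, against 571, 648, 573 and 625 CPM in CD4 cells, higher in each library by a log2 fold change of 0.17 (SE 0.038, adjusted p = 0.00239). The lowest Treg-origin value and the highest CD4 value were 648 CPM each, so the groups met at their edge. Lck had 328, 325, 327 and 320.1 CPM in Treg-origin cells and 368, 333, 349.6 and 347 CPM in CD4 cells, lower in 4 of 4 libraries but short of the threshold (log2 fold change -0.11, SE 0.045, adjusted p = 0.0577). Zap70 had 160.2, 211, 182 and 183 CPM in Treg-origin cells and 190.5, 195, 199 and 209 CPM in CD4 cells (log2 fold change -0.12, SE 0.063, adjusted p = 0.136), with TIGITKO as the 1 library higher in Treg-origin cells. Without the TIGITKO library both kinases were called lower in Treg-origin cells, Lck at -0.14 and Zap70 at -0.20 (adjusted p = 0.0393 and 0.0206).

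**Figure D2:**
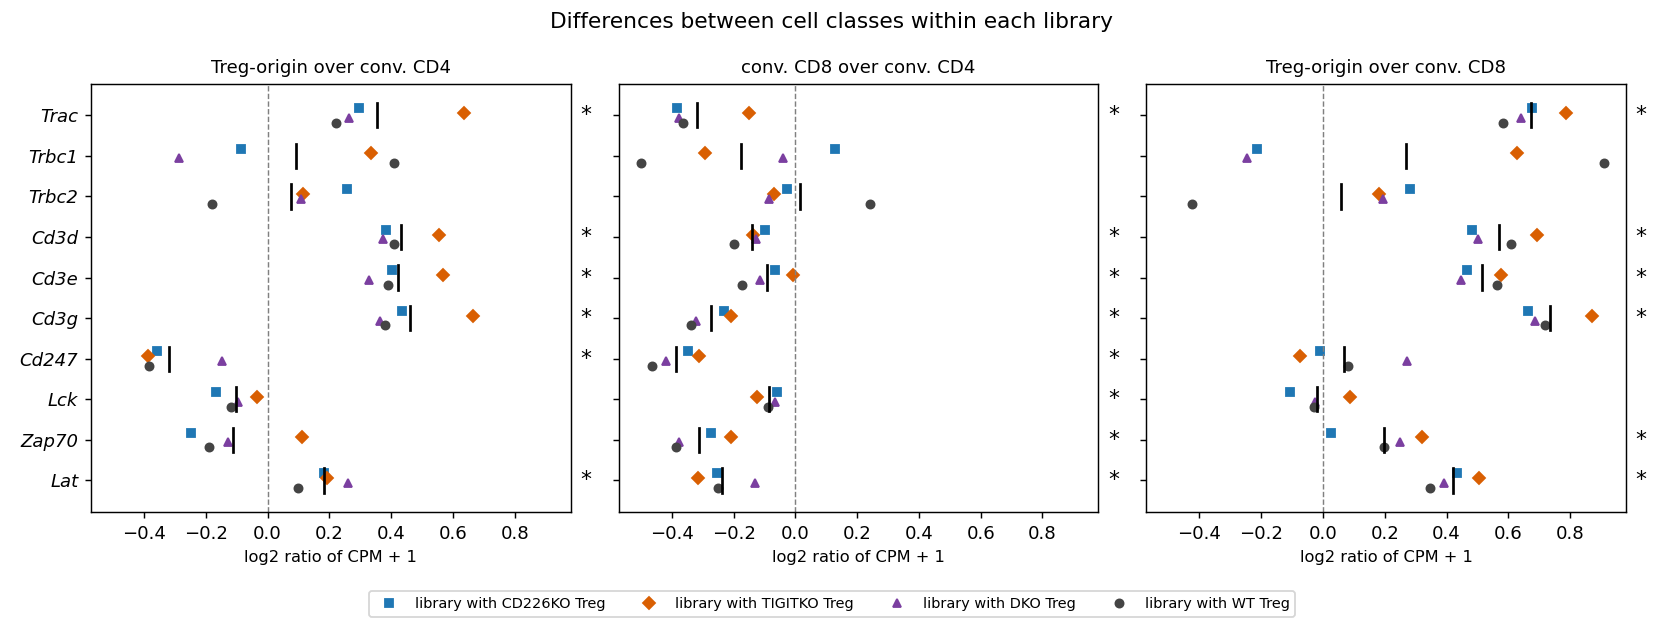
Log2 ratio of CPM (plus 1) between classes within each library, for Treg-origin over conventional CD4, conventional CD8 over conventional CD4 and Treg-origin over conventional CD8 cells. Points are libraries, black lines their mean, and a star marks an edgeR adjusted p of at most 0.05. The ratios of Cd3d, Cd3e and Cd3g over CD4 lie between 0.33 and 0.66 in all 4 libraries, while those of Trbc1 lie on both sides of 0.

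Conventional CD8 cells had lower levels than conventional CD4 cells for 8 of the 10 genes, and no gene was called higher. In all, 23.7% of 11487 tested genes were called lower, 22.9% higher and 46.6% either way, and the median log2 fold change was -0.19 for the 10 genes and -0.0012 for all. Both classes were wild type and carried the same CD45 allele. Cd247 differed most, with 157, 136, 139 and 146 CPM in CD8 cells of CD226KO, TIGITKO, DKO and WT against 199.7, 169.6, 187 and 202 CPM in CD4 cells (log2 fold change -0.38, SE 0.027, adjusted p = 3.85e-07). Every CD8 value lay below every CD4 value.

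Trac had 463, 437, 481 and 467 CPM in CD8 cells of CD226KO, TIGITKO, DKO and WT, against 604, 485, 625 and 600.3 CPM in CD4 cells (log2 fold change -0.31, SE 0.033, adjusted p = 1.26e-05). Zap70, which had 158, 168, 153 and 159.5 CPM in CD8 cells and 190.5, 195, 199 and 209 CPM in CD4 cells, was lower by a log2 fold change of -0.30 (SE 0.029, adjusted p = 5.68e-06). Neither gene's groups overlapped. Cd3g had 993, 890.5, 941 and 863 CPM in CD8 cells and 1164, 1029, 1175 and 1091 CPM in CD4 cells (log2 fold change -0.26, SE 0.022, adjusted p = 1.81e-06). Lat had 479.7, 521, 523 and 526 CPM in CD8 cells and 571, 648, 573 and 625 CPM in CD4 cells (log2 fold change -0.22, SE 0.026, adjusted p = 2.39e-05). For both of these genes, too, each CD8 value was under each CD4 value.

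The remaining differences between CD8 and CD4 cells were small. Cd3d fell by 1.09-fold (adjusted p = 1.64e-04), Cd3e by 1.06-fold (adjusted p = 0.0254) and Lck by 1.05-fold (adjusted p = 0.00837). The call of Cd3e was lost without DKO (adjusted p = 0.0767) or WT (adjusted p = 0.130), and that of Lck without TIGITKO (adjusted p = 0.0625). None of these 3 passed when the comparison was made among non-cycling cells alone, with log2 fold changes of 0.023, -0.018 and 0.037 (adjusted p = 0.784, 0.918 and 0.774), or among cycling cells alone, with -0.043, -0.019 and -0.030 (adjusted p = 0.115, 0.606 and 0.29). Trac, Cd3g, Cd247, Zap70 and Lat were called lower in both divisions. Trbc1, with 1086, 745, 829 and 677 CPM in CD8 cells of CD226KO, TIGITKO, DKO and WT, ranged from below all CD4 values to above them (log2 fold change -0.16, SE 0.072, adjusted p = 0.0848), and was called lower, at -0.27, without the CD226KO library (adjusted p = 0.00713). Trbc2 had 2032, 1855, 1923 and 2373 CPM in CD8 cells (log2 fold change 0.028, adjusted p = 0.608), and the library high in Trbc2, WT, was the one low in Trbc1. Without the WT library Trbc2 was called lower in CD8 cells, at -0.047 (adjusted p = 0.0309). Among non-cycling cells alone it was instead called higher in CD8 cells, as the 1 gene of the 10 so called. Of all genes, 455 were called higher there. The sum of both was 2879.9 ± 245 CPM in CD8 cells and 2943 ± 90.6 CPM in CD4 cells (SD, n = 4 libraries each), a mean log2 difference of -0.035 with an SD of 0.084 (exact sign-flip permutation test, two-sided p = 0.5).

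Set against conventional CD8 cells, Treg-origin cells were higher in Trac, Cd3d, Cd3e, Cd3g, Zap70 and Lat, and no gene was called lower. That is 6 of 10, against 26.1% of 10894 tested genes called higher and 26.4% lower, 52.5% in all. Cd3g was 1.62-fold higher (log2 fold change 0.70, SE 0.036, adjusted p = 6.33e-10) and Trac 1.55-fold (log2 fold change 0.64, SE 0.040, adjusted p = 4.82e-09). Cd3d, Cd3e and Lat had log2 fold changes of 0.53, 0.48 and 0.38 (adjusted p = 2.38e-08, 7.13e-07 and 7.60e-07). Zap70 was near the threshold at 0.16 (adjusted p = 0.0247), and its call was lost without the TIGITKO, the DKO or the WT library (adjusted p = 0.141, 0.115 and 0.108). Cd247, at 0.033 with an SE of 0.062, and Lck, at -0.056 with an SE of 0.045, did not pass (adjusted p = 0.688 and 0.325). Nor did Trbc1, at 0.24 (adjusted p = 0.174), and Trbc2, at 0.021 (adjusted p = 0.835). Trbc1 was called higher without CD226KO (0.40, adjusted p = 0.0321) or without DKO (0.40, adjusted p = 0.0374), and Trbc2 without WT (0.16, adjusted p = 0.00175). The order of mean levels was therefore Treg-origin, CD4, CD8 for Trac, Cd3d, Cd3e, Cd3g and Lat. For Cd247 it was CD4 and then Treg-origin and CD8 cells, which did not differ beyond their spread at antibody limits of -0.6 and 2.2. With the stricter antibody limits of -1.5 and 3, all 10 genes, Cd247 included, were called higher in Treg-origin than in CD8 cells. After thinning each cell to 2000 UMIs, 8 of the 10 were. Of all genes, 2174 and 2007 were called higher in these settings, and 2055 and 1963 lower, against 2846 higher and 2874 lower at the main settings.

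Calls of cycling cells moved with the class and with these genes. Cells with at least 3 UMIs of 8 cell cycle genes (Mki67, Top2a, Cdk1, Ccna2, Ccnb1, Ccnb2, Birc5 and Tpx2) were called cycling, and those with 0 non-cycling. These limits were applied to counts at full depth, and Treg-origin cells were shallower. In WT the median was 5372 UMIs in Treg-origin, 11901 in CD8 and 9013 in CD4 cells. The part of depth in the shares of cycling cells was not tested. Cycling cells made up 29.2%, 38.5%, 39.6% and 36.8% of Treg-origin cells in CD226KO, TIGITKO, DKO and WT, 87.2%, 90.1%, 88.5% and 92.1% of conventional CD8 cells, and 68.2%, 71.5%, 69.3% and 72.6% of conventional CD4 cells. Within conventional CD4 cells, 9 of 10 genes were lower in cycling than in non-cycling cells and none was higher, against 28.4% of 10541 tested genes called lower and 28.7% higher, 57.1% in all. Within conventional CD8 cells 7 of 10 were lower, against 15.1% lower and 20.6% higher of 10681, 35.7% in all. Median UMIs per cell were 8543 to 10940 in cycling and 4190 to 5364 in non-cycling CD4 cells, and 9511 to 12590 in cycling and 4415 to 5792 in non-cycling CD8 cells. Cycling cells were thus deeper, so levels were also compared at equal depth. Both comparisons are of shares of UMIs, so a lower level in cycling cells need not mean fewer transcripts per cell. After thinning each cell to 2000 UMIs, with cycling still set at full depth, 9 and 6 of the genes were called lower in CD4 and CD8 cells. Of all genes, 2033 and 849 were then called lower and 2013 and 1275 higher.

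Cd3d had the largest decrease in its share of UMIs with cycling among the 10 genes. It had 909.9, 858, 904 and 884 CPM in cycling CD4 cells of CD226KO, TIGITKO, DKO and WT, against 1396, 1381, 1287 and 1391 CPM in non-cycling CD4 cells (log2 fold change -0.59, SE 0.025, adjusted p = 8.75e-21). In CD8 cells it had 903, 835, 871 and 817 CPM in cycling and 1309, 1407, 1271 and 1388 CPM in non-cycling cells (log2 fold change -0.63, SE 0.041, adjusted p = 5.98e-41). The groups were far apart in both classes. Cd3g fell by 1.42-fold in CD4 and 1.37-fold in CD8 cells (adjusted p = 1.16e-16 and 1.17e-23), and Cd3e by 1.36-fold and 1.33-fold (adjusted p = 1.85e-12 and 1.98e-09).

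The beta constant genes fell with cycling in both classes, while Trac fell by little in CD4 cells and did not pass the test in CD8 cells. Trbc1 plus Trbc2 had 2926, 2747, 2778 and 2839.6 CPM in cycling CD4 cells of CD226KO, TIGITKO, DKO and WT, against 3714, 3475, 3466 and 3864 CPM in non-cycling CD4 cells. In CD8 cells the sum was 3070.3, 2558, 2710.2 and 3021 CPM in cycling and 3866, 3627, 3706 and 4111 CPM in non-cycling cells. Each cycling value lay under each non-cycling one. Trac had 606, 471, 633 and 600.0 CPM in cycling and 639, 555, 621 and 669.6 CPM in non-cycling CD4 cells, ranges that overlapped (log2 fold change -0.083, SE 0.032, adjusted p = 0.0259), and this call was lost without CD226KO, without TIGITKO and without WT, at adjusted p = 0.0644, 0.286 and 0.168. In CD8 cells Trac had 464, 436, 483 and 465 CPM in cycling and 419.6, 455, 459.8 and 464 CPM in non-cycling cells (log2 fold change 0.057, adjusted p = 0.434). Among the signalling genes, Lck fell by 1.26-fold in CD4 and 1.29-fold in CD8 cells (adjusted p = 5.05e-11 and 8.47e-10). Lat stayed within -0.010 and 0.0069 on the log2 scale (SE 0.028 and 0.051, adjusted p = 0.771 and 0.938). Zap70 was lower in CD4 cells (-0.23, adjusted p = 4.84e-06) and did not pass in CD8 cells (0.021, adjusted p = 0.874). Cd247 was lower by 1.19-fold in CD4 and 1.17-fold in CD8 cells (adjusted p = 7.16e-06 and 0.015), and in CD8 cells its call was lost without CD226KO (adjusted p = 0.264) or TIGITKO (adjusted p = 0.141).

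**Figure D3:**
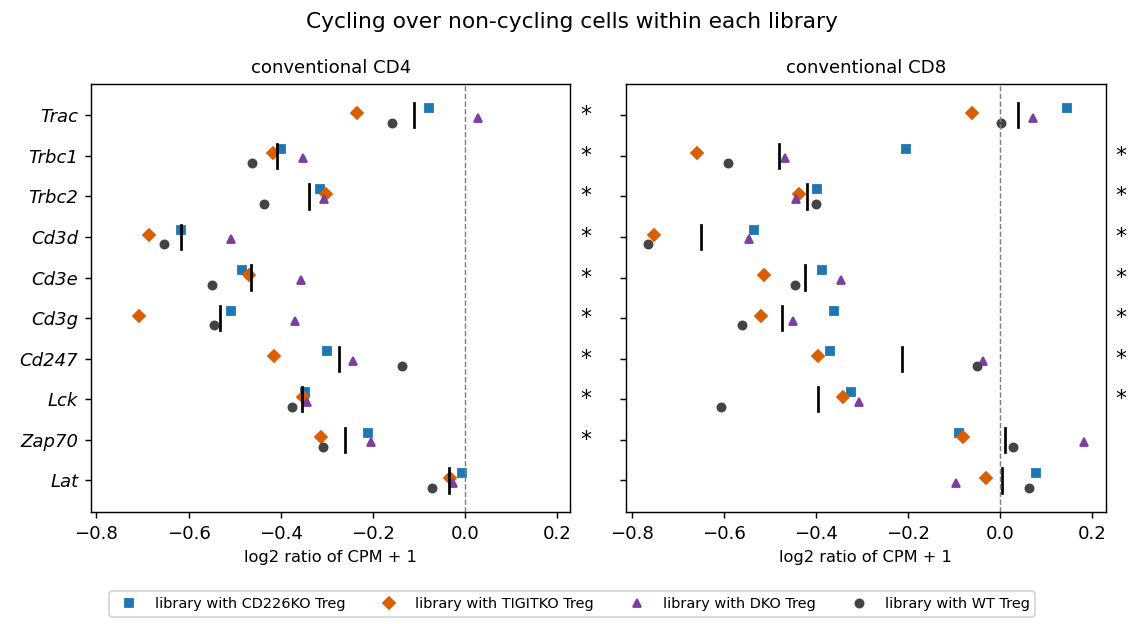
Log2 ratio of CPM (plus 1) of cycling over non-cycling cells in each library, for conventional CD4 and conventional CD8 cells. Points are libraries, black lines their mean, and a star marks an edgeR adjusted p of at most 0.05. Cd3d lies furthest below 0 on average in both classes, and Lat close to 0.

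The difference between Treg-origin and CD4 cells was therefore also taken among cells called alike by these UMI limits. Such cells can still differ in depth. Non-cycling cells of WT had medians of 4097 UMIs in Treg-origin and 5364 in CD4 cells. Among non-cycling cells Trac, Cd3d, Cd3e, Cd3g and Lat were still higher in Treg-origin cells, with log2 fold changes of 0.24, 0.23, 0.35, 0.33 and 0.20 (adjusted p = 0.00498, 4.24e-04, 1.24e-04, 4.29e-07 and 0.0081). Among cycling cells Trac, Cd3d and Cd3g were higher, at 0.35, 0.22 and 0.21 (adjusted p = 7.82e-04, 7.22e-04 and 0.00231), and Cd3e and Lat, at 0.14 and 0.12, no longer passed (adjusted p = 0.119 and 0.0823). The log2 difference of Cd3d within either state was smaller than that over all cells, 0.42. Cd247 was lower in Treg-origin cells in both states, at -0.32 in non-cycling and -0.60 in cycling cells (adjusted p = 0.0047 and 1.42e-05). Lck was called lower among cycling cells alone, at -0.31 (adjusted p = 6.24e-04), and so was Trbc2, at -0.14 (adjusted p = 0.0301). Of all genes, 845 were called higher and 764 lower in non-cycling cells, and 1162 higher and 1017 lower in cycling cells. Against CD8 cells, Trac was higher by 0.68 in non-cycling and 0.64 in cycling cells (adjusted p = 1.16e-08 and 6.70e-10), close to its value over all cells, while Zap70 no longer passed among cycling cells (0.066, adjusted p = 0.485) and Cd3d was at 0.22 and 0.25 (adjusted p = 0.00168 and 3.33e-05). Among cycling cells Trbc2, Cd247 and Lck, which had not passed over all cells, were called lower in Treg-origin than in CD8 cells, at -0.22, -0.25 and -0.29 (adjusted p = 0.0137, 0.0127 and 1.38e-04).

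Many Treg-origin cells held no UMI of Foxp3, the factor that defines Treg cells, or of Ikzf2, which encodes the Treg-associated factor Helios. Cells with such a UMI numbered 260, 348, 276 and 280, and those without 72, 114, 100 and 87, in CD226KO, TIGITKO, DKO and WT. Trac was higher in cells with a Foxp3 or Ikzf2 UMI, with 789, 793, 823 and 777 CPM against 587, 627, 552 and 438 CPM in cells without, and the groups did not overlap (log2 fold change 0.51, SE 0.072, adjusted p = 3.60e-05). Cd3g had 1641, 1676, 1542 and 1491 CPM in cells with and 1348, 1485, 1437 and 1186 CPM in cells without such a UMI (log2 fold change 0.19, SE 0.052, adjusted p = 0.0283), and lost its call when any 1 of the WT, CD226KO and TIGITKO libraries was left out (adjusted p = 0.168, 0.175 and 0.0705). The other 8 genes did not pass, although Trbc2 was called higher without TIGITKO (0.23, adjusted p = 0.0306). So 2 of 10 rose, against 2.02% of 6946 genes called higher and 2.15% lower, 4.16% in all. With the stricter antibody limits neither call held (Trac at 0.31, adjusted p = 0.29; Cd3g at 0.16, adjusted p = 0.749). Cd8a plus Cd8b1, markers of CD8 cells, summed to 9.55 to 20.02 CPM in cells with and 29.3 to 127.5 CPM in cells without a Foxp3 or Ikzf2 UMI. Neutrophil genes reached 7525 CPM in the cells without such a UMI in WT, and B cell genes 2233 CPM in the cells without one in CD226KO. Their part in the difference was not tested.

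Single cells were also compared by which beta constant gene was detected. Of cells with UMIs of only 1 beta constant gene, Trbc1 cells made up 5 of 135, 5 of 166, 3 of 222 and 9 of 128 Treg-origin cells in CD226KO, TIGITKO, DKO and WT, which is 3.70%, 3.01%, 1.35% and 7.03% (exact Clopper-Pearson 95% intervals 1.21% to 8.43%, 0.985% to 6.89%, 0.280% to 3.90% and 3.27% to 12.9%). In conventional CD8 cells the shares were 0.487%, 0.551%, 0.644% and 0% (0 of 711, interval up to 0.517%), and in conventional CD4 cells 0.413%, 1.51%, 0.409% and 0.473%. The mean was 3.77% ± 2.38 in Treg-origin cells, 0.420% ± 0.288 in CD8 cells and 0.701% ± 0.539 in CD4 cells (SD, n = 4 libraries). Treg-origin cells were 3.07 ± 2.53 percentage points above CD4 cells and 3.35 ± 2.67 above CD8 cells, in 4 of 4 libraries each (exact paired sign-flip permutation test, two-sided p = 0.13, the smallest that 4 libraries allow). CD8 cells differed from CD4 cells by -0.280 ± 0.544 points (exact p = 0.5). These are 3 differences, and no p can pass 0.05 at this number of libraries. The difference was not as even under other settings. Treg-origin cells were shallower, with medians of 3921.5 to 5372 UMIs against 8887 to 11901 in CD8 and 7039.5 to 9013 in CD4 cells. Without the WT library the difference from CD4 cells was 1.91 points, with the stricter antibody limits 0.975 points and with the stricter cell limits 1.49 points, and under each of these limits 0 DKO Treg-origin cells held Trbc1 alone. Among Treg-origin cells in which Cd4 UMIs outnumbered Cd8 UMIs the shares were 0%, 5.63%, 0% and 7.94% in CD226KO, TIGITKO, DKO and WT.

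At equal depth the order of the classes did not hold in every library. With each cell thinned to 2000 UMIs, and shallower cells left out, 315, 405, 354 and 353 Treg-origin cells of CD226KO, TIGITKO, DKO and WT remained, and the shares among those with UMIs of only 1 beta constant gene were 4.76%, 8.02%, 4.27% and 18.3%. They were 9.95%, 6.36%, 5.83% and 3.96% in CD8 cells and 6.28%, 6.66%, 5.14% and 6.74% in CD4 cells. Treg-origin cells were then above both conventional classes in TIGITKO and WT and below both in CD226KO and DKO, with mean differences of 2.63 points from CD4 and 2.31 points from CD8 cells (exact paired sign-flip permutation test, two-sided p = 0.75 for each). The share of Trbc1 thus moved with depth in every class, and was 6.74% in thinned against 0.473% in unthinned CD4 cells of WT. Within cells in which Trbc1 gave at least 90% of at least 10 beta UMIs, 4.35% to 8.84% of these UMIs were of Trbc2. The choice of these cells caps that value at 10%. They were few, at most 4.64% of the cells with 10 beta UMIs in any class and library.

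At full depth, UMIs of both genes were held by most cells in every class and library except the Treg-origin cells of DKO: 59.0%, 63.0%, 40.2% and 64.0% of Treg-origin cells in CD226KO, TIGITKO, DKO and WT, 84.1%, 68.6%, 67.7% and 66.1% of CD8 cells, and 68.7%, 74.0%, 65.0% and 69.1% of CD4 cells. Cells with Trbc2 alone made up 39.2%, 34.8%, 58.2% and 32.4% of Treg-origin, 15.7%, 31.1%, 31.6% and 33.9% of CD8 and 31.1%, 25.3%, 34.7% and 30.6% of CD4 cells. The share of Trbc1 among a cell's beta UMIs, in cells with at least 10, peaked near 0 with a broad remainder above. At least 90% of beta UMIs came from Trbc2 in 48.6%, 32.5%, 58.2% and 31.1% of such Treg-origin cells, in 28.9%, 41.1%, 42.2% and 52.1% of CD8 cells and in 41.0%, 31.6%, 43.8% and 40.8% of CD4 cells. At least 90% came from Trbc1 in at most 4.64% of any class and library, a value reached by Treg-origin cells of WT. Barcodes with at least 10 UMIs of the macrophage genes C1qa, C1qb and C1qc numbered 8 to 40 a library and had 4872 to 5919 CPM of the 7 receptor genes (Trac, Trbc1, Trbc2, Cd3d, Cd3e, Cd3g and Cd247).

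**Figure D4:**
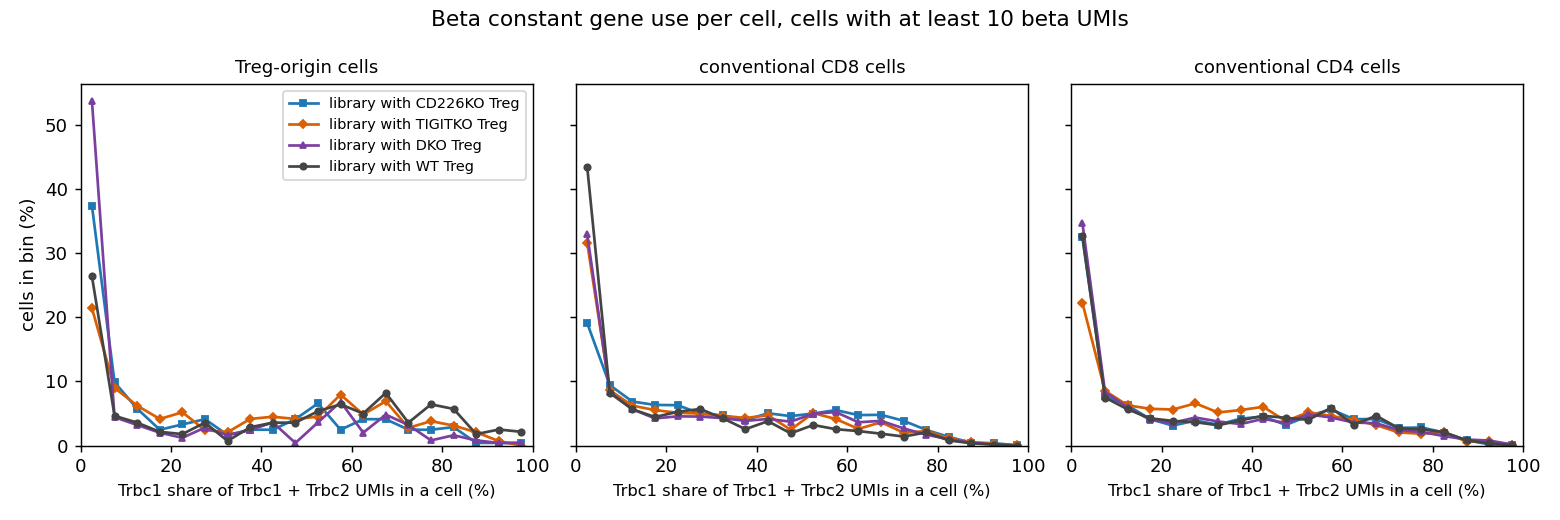
Share of Trbc1 among the Trbc1 and Trbc2 UMIs of each cell, in percent, for cells with at least 10 such UMIs. The y axis gives the percent of cells in each bin and lines are libraries. Every line peaks in the lowest bin, and the peak is highest in Treg-origin cells of DKO and in CD8 cells of WT, where Trbc2 gave at least 90% of beta UMIs in 58.2% and 52.1% of cells.

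Over all beta UMIs, Trbc1 made up 27.5%, 35.4%, 24.1% and 41.9% in Treg-origin cells of CD226KO, TIGITKO, DKO and WT, 34.8%, 28.7%, 30.1% and 22.2% in CD8 cells, and 32.4%, 31.9%, 29.5% and 32.4% in CD4 cells. The 4 CD4 shares lay close together and the 4 Treg-origin shares furthest apart.

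Between genotypes there is 1 library each, so the following values are descriptions with counting intervals and no test. Of 150 ratios (10 genes, 3 classes, 5 contrasts), 10 were at least 25% above or 20% below 1, and 8 of the 10 were of Trbc1 or Trbc2. In Treg-origin cells the genes past either limit numbered 2 of 10 for CD226KO over WT, 2 for DKO over TIGITKO, 0 for TIGITKO over WT, 1 for DKO over CD226KO and 1 for DKO over WT, against 17.7%, 18.4%, 15.0%, 19.2% and 16.0% of all 5171 genes of at least 20 CPM. This background includes genes down to 20 CPM, while the 10 genes had 129 CPM or more in Treg-origin cells. Its ratios were also taken after adding 1 to each CPM. Counting error is larger at lower counts, so the counts over the 10 genes cannot be set against it directly. The same holds for the conventional classes below.

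Trbc1 in Treg-origin cells had 936 CPM in CD226KO and 1273 CPM in WT, a ratio of 0.735 (exact 95% interval 0.691 to 0.781), and 699 CPM in DKO against 1151 CPM in TIGITKO, a ratio of 0.607 (0.568 to 0.648). It was thus lower in both libraries whose Treg cells lacked CD226 than in the library with CD226 from the same lane. Trbc1 also differed between both libraries lacking CD226, with a ratio of 0.747 for DKO over CD226KO (0.695 to 0.802). For CD226KO over WT and DKO over TIGITKO its ratios were 1.60 and 1.11 in wild-type CD8 cells, and 1.04 and 0.934 in wild-type CD4 cells. With 1 library each, genotype and library cannot be told apart. Trbc2 in Treg-origin cells was 1.40-fold higher in CD226KO than in WT (1.34 to 1.46), and the ratio was 1.04 for DKO over TIGITKO. The sum of both was 1.12 times higher in CD226KO than in WT (1.08 to 1.16) and 0.890 times as high in DKO as in TIGITKO (0.859 to 0.921).

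The other 8 genes in Treg-origin cells lay between 0.838 and 1.30 over all 5 contrasts. Cd247 was the only one of them past a limit, with 168 CPM in DKO against 129 CPM in TIGITKO, a ratio of 1.30 (1.11 to 1.53). For CD226KO over WT its ratio was 1.01 (0.858 to 1.18). The kinase Lck was nearly level, between 320.1 and 328 CPM in the 4 libraries, a coefficient of variation of 1.10%. Counting error of Lck was wider than this spread, with a ratio of 1.02 (0.917 to 1.14) for CD226KO over WT.

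The conventional cells were wild type in every library. In CD4 cells 1 of 10 genes passed a limit for DKO over TIGITKO, against 3.26% of 5089 genes, and none did for CD226KO over WT, TIGITKO over WT, DKO over CD226KO and DKO over WT, against 1.1%, 1.02%, 0.963% and 1.3%. That gene was Trac, with 625 CPM in DKO and 485 CPM in TIGITKO, a ratio of 1.29 (1.26 to 1.32). For CD226KO over WT its ratio in CD4 cells was 1.01 (0.986 to 1.03). In CD8 cells 1 of 10 passed for CD226KO over WT, 1 for TIGITKO over WT and 1 for DKO over CD226KO, against 2.87%, 1.41% and 1.43% of 5045 genes, and none for DKO over TIGITKO and DKO over WT, against 3.03% and 1.68%. Each was a beta constant gene: Trbc1 had 1086 CPM in CD226KO and 677 CPM in WT, Trbc2 had 1855 CPM in TIGITKO and 2373 CPM in WT, and Trbc1 had 829 CPM in DKO and 1086 CPM in CD226KO. Apart from these genes, CD8 ratios lay between 0.888 and 1.15 in all 5 contrasts.

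**Figure D5:**
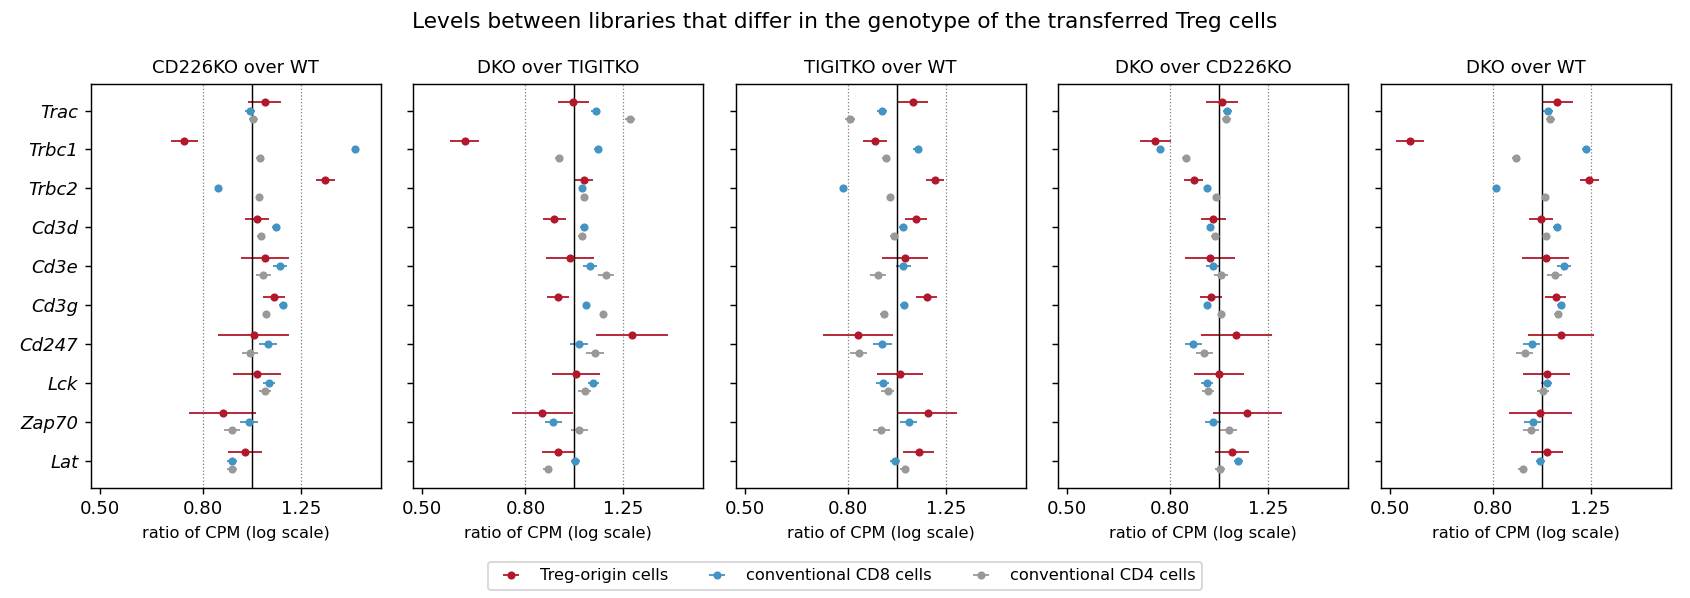
Ratio of CPM between libraries on a log axis for 5 contrasts of Treg genotype, by gene, in Treg-origin, conventional CD8 and conventional CD4 cells. Points are ratios with exact 95% counting intervals, the solid line is 1 and dotted lines mark 25% above and 20% below it. Trbc1 in Treg-origin cells lies below 0.8 in the contrasts of CD226KO over WT, DKO over TIGITKO, DKO over CD226KO and DKO over WT.

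Around the receptor, genes of 5 pathway lists were read in the same fits, without Cd4, Cd8a and Cd8b1, which define the conventional classes. Of 9 coreceptor and raft adaptor genes, 6 rose and 1 fell in Treg-origin over CD4 cells (median log2 fold change 0.31), against 21.5% of all tested genes that rose and 20.5% that fell. Trat1, an adaptor that associates with the receptor complex, had 63.5, 68.8, 56.1 and 55.9 CPM in Treg-origin cells of CD226KO, TIGITKO, DKO and WT, against 6.61, 11.3, 10.3 and 9.29 CPM in CD4 cells (log2 fold change 2.70, adjusted p = 3.12e-09). Cd6, a surface receptor of T cells, had 164, 157, 175 and 161 CPM in Treg-origin cells and 75.7, 77.2, 82.0 and 80.5 CPM in CD4 cells (log2 fold change 1.05, adjusted p = 1.47e-08). Both log2 fold changes exceeded those of all 10 receptor and kinase genes. Pag1, which brings the LCK inhibitor CSK to membrane rafts, fell, with a log2 fold change of -0.44 (adjusted p = 4.25e-04).

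Of the 20 genes of the proximal kinases and the LAT signalosome, 10 rose and 2 fell (median 0.17). Tespa1, needed for T cell receptor signalling in thymocytes, rose by 0.71 on the log2 scale (adjusted p = 1.52e-06) and Unc119, an adaptor that activates LCK and FYN, by 0.51 (adjusted p = 2.07e-05). Themis, another regulator of thymocyte selection, was at -0.87 (adjusted p = 1.99e-06), and the kinase Fyn at -0.21 (adjusted p = 0.0136). Of 20 downstream relays, 3 rose and 5 fell (median 0.041), near the shares of all genes. Rasgrp1, which activates Ras downstream of LAT, rose by 0.98 (adjusted p = 2.04e-08), while Nras, which encodes a Ras protein, was at -0.25 (adjusted p = 0.00639). Of 19 negative regulators, 5 rose and 3 fell (median 0.12), also near those shares. Dok1 and Sla, adaptors that dampen receptor signals, were at 0.94 and 0.79 (adjusted p = 3.67e-06 and 1.64e-06), and the phosphatase gene Ptpn6 and the diacylglycerol kinase gene Dgkz at -0.91 and -0.38 (adjusted p = 4.65e-07 and 2.37e-04). Of 8 tested gamma-delta and innate genes 4 rose and none fell. Both genes named here were rare. Tyrobp had 6.29, 19.1, 4.39 and 14.3 CPM in Treg-origin cells of CD226KO, TIGITKO, DKO and WT and 6.09, 2.72, 4.21 and 4.24 CPM in CD4 cells (log2 fold change 1.38, adjusted p = 0.00864). Its Treg-origin values were well above CD4 cells in TIGITKO and WT, whose Treg-origin sums held 1506 and 1717 CPM of neutrophil genes, and close to CD4 cells in CD226KO and DKO, with 4.58 and 3.90 CPM of these genes. The part of the neutrophil transcripts in this call was not tested. Tcrg-C4 had 4.01, 3.82, 1.46 and 2.17 CPM in Treg-origin and 0.934, 2.06, 0.472 and 1.26 CPM in CD4 cells (log2 fold change 1.2465, adjusted p = 0.0168).

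In CD8 over CD4 cells, 7 of the 9 coreceptor and raft adaptor genes fell and 1 rose (median -0.36), 9 of 20 proximal genes fell and 6 rose (median -0.026), 10 of 20 downstream relays fell and 2 rose (median -0.12), and 6 of 19 negative regulators fell and 9 rose (median 0.050). Of all tested genes, 23.7% fell and 22.9% rose. Trat1 and Cd6 were at -1.71 and -1.11 (adjusted p = 1.05e-07 and 1.78e-08). Tespa1 was at -0.97 and the LAT-binding adaptor Grap2 at 0.48 (adjusted p = 7.06e-08 and 3.38e-07). Nfkb1, an NF-kappa-B subunit, and Orai1, the pore of the calcium channel opened by the receptor, were at -0.78 and -0.78 (adjusted p = 9.40e-09 and 8.60e-07). Among negative regulators the ubiquitin ligase gene Nedd4 was at 1.03 and Dok2 at -0.45 (adjusted p = 6.36e-08 and 3.70e-08). Of 9 gamma-delta and innate genes 5 rose and 2 fell. Fcer1g, a signalling chain related to CD247, had 80.4, 60.3, 43.4 and 56.5 CPM in CD8 cells of CD226KO, TIGITKO, DKO and WT, against 22.7, 18.7, 18.8 and 21.6 CPM in CD4 cells (log2 fold change 1.55, adjusted p = 1.66e-08).

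With cycling, 12 of 20 proximal genes fell and 3 rose in CD4 cells (median -0.27), and 10 fell and none rose in CD8 cells (median -0.26). Of all tested genes 28.4% fell and 28.7% rose in CD4 cells, and 15.1% fell and 20.6% rose in CD8 cells. Tespa1 was at -1.12 in CD4 and -0.94 in CD8 cells, and Plcg1, the phospholipase recruited by LAT, at -0.60 and -0.50 (adjusted p = 1.38e-20, 9.07e-16, 3.00e-06 and 0.0269). Of the coreceptor and raft adaptor genes, 5 of 9 fell in each class and none rose. Trat1 was at -1.30 in CD4 and -1.27 in CD8 cells (adjusted p = 1.66e-10 and 0.0135). Of the 20 downstream relays 4 rose and 8 fell in CD4 cells, and 2 rose and 4 fell in CD8 cells. Their median log2 fold changes were -0.11 and -0.076, against -0.025 and 0.029 for all genes. Nras was at 0.29 and 0.47 and Rasgrp1 at -0.71 and -0.77 in CD4 and CD8 cells (adjusted p = 8.33e-05, 7.72e-05, 9.68e-11 and 6.00e-08).

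Over the 12 sums of 3 classes and 4 libraries, the summed level of the 7 receptor genes (alpha and beta constant genes, the CD3 chains and Cd247) was 7201 ± 339.7 CPM in Treg-origin, 5513 ± 317 CPM in CD8 and 6034 ± 241 CPM in CD4 cells (SD, n = 4 libraries each). Among 5159 genes that averaged 20 CPM or more, those outside the 10 whose log2 level was most alike by Pearson's r over the 12 sums were Arf5 (0.981), Tmem50a (0.981), Yy1 (0.980), Trim12a (0.979) and AY036118 (0.975). The 12 sums share libraries, and the values are descriptions. Of the genes themselves, Cd3g, Cd3d, Cd3e and Trac followed the sum with r of 0.972, 0.960, 0.953 and 0.942, Lat, which is no part of it, with 0.780, and Trbc1 and Trbc2 with 0.487 and 0.379. Cd247 and Lck, at 0.027 and 0.013, did not move with it.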

How the data were processed

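The authors deposited 1 filtered matrix of UMI counts for each library, made with Cell Ranger 3.1.0 and mm10 per the submitters' processing notes; the labels name a 10x 3′ v3 kit and DNA-barcoded CD45.1 and CD45.2 antibodies. How reads matching both Trbc1 and Trbc2 were counted is not given in the sources used here. The genes, gene lists and tests were chosen with earlier results of these data known.

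Barcodes were kept from 500 detected genes upward and up to a mitochondrial share of 10% (7654 to 10383 of 8597 to 11126 a library). No doublet caller was used; barcodes over the 98th percentile of UMIs were left out in an alternative. Conventional cells with equal Cd4 and Cd8a plus Cd8b1 counts (1565 to 2775 a library) and cells with ratios between -0.6 and 2.2 (434 to 1144) entered no comparison. Sums of UMIs over the cells of a class in a library were tested in R 4.3.3 with edgeR 4.0.16 (filterByExpr, TMM, library as block, quasi-likelihood F-test, Benjamini-Hochberg). The classes of 1 library come from the same recipients, which gives the pairing. Cd226, Tigit, Cd4, Cd8a, Cd8b1 and other class-defining genes were left out of the calls. The SE is the log2 fold change over the square root of F. The method was tested on simulated data. Poisson, Clopper-Pearson and conditional intervals are exact 95% intervals. From each list up to 4 called genes with the largest changes were named, except 1 gene that is not reported here. Alternatives were DESeq2 1.42.0 or its size factors, no expression filter, no block, each library left out, stricter cell or antibody limits, thinning to 2000 UMIs and 1 joint fit. The comparison by cycling state was added after seeing the data. Whether a pool of 3 means recipients or donors is not given in the sources used here. The edgeR p-values and SEs rest on the spread between these 4 pools, with dispersions moderated over all genes tested. They do not measure the spread of 1 gene between the pools alone.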

Additional observations from a re-analysis of the deposited data

Results flagged for a closer look

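Each of 33 sets of 4 libraries (10 genes in 3 classes, and the Trbc1 share in 3 classes) was examined for a library far from the other 3, of which chance flags about 1.65. Lat in conventional CD8 cells was lowest in CD226KO, at 479.7 CPM, against 521, 523 and 526 CPM in TIGITKO, DKO and WT. The share of Trbc1 among conventional CD4 cells with UMIs of 1 beta constant gene was highest in TIGITKO, at 1.51% (12 of 796 cells), against 0.413%, 0.409% and 0.473% in CD226KO, DKO and WT.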

How the results depend on the processing

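Losses of calls by leaving out a library, by the stricter antibody limits and by cycling state stand with the results. The library block follows from the shared recipients: with no replicate block, the calls of Cd3e (adjusted p = 0.298) and Lck (0.258) in CD8 over CD4 cells, Zap70 in Treg-origin over CD8 cells (0.0725), Cd3g by Foxp3 or Ikzf2 UMI (0.186), Trac with cycling in CD4 cells (0.362) and Cd247 with cycling in CD8 cells (0.0597) were lost in edgeR. DESeq2 lost Cd3e in CD8 over CD4 cells (adjusted p = 0.0823), Cd3g by Foxp3 or Ikzf2 UMI (0.142), Trac with cycling in CD4 cells (0.164) and Cd247 with cycling in CD8 cells (0.0527). Cd3e in CD8 over CD4 cells was also lost in edgeR with stricter cell limits (adjusted p = 0.0678), thinning (0.1495) and 1 joint fit (0.107), and Lck with the joint fit (0.079). With cycling, stricter cell limits lost Trac in CD4 cells (0.692) and Cd247 in CD8 cells (0.1945), thinning lost this Cd247 call (0.122), and testing all genes with any UMI lost this Trac call (0.629). That setting also lost Lat in Treg-origin over CD4 cells (0.0536) and Zap70 over CD8 cells (0.172). All other calls of the 10 genes kept their direction and their side of the threshold under the alternatives run. Over all comparisons and settings, genes without a call gained one 37 times, 21 of them Trbc1 or Trbc2 and 5 in the opposite direction to the value first given, and 46 calls were lost, none of Trbc1 or Trbc2. The causes were not tested. The sums differed in depth: 404797 to 1015696 UMIs in non-cycling CD8 cells, 405734 to 545723 in Treg-origin cells without a Foxp3 or Ikzf2 UMI, 1747477 to 2305761 in all Treg-origin and 2106872 to 3136430 in non-cycling CD4 cells.

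Counts over all genes moved as follows. For Treg-origin over CD4 cells, higher and lower calls (2311 and 2207) were 1474 and 1437 after thinning, 845 and 764 in non-cycling and 1162 and 1017 in cycling cells. For CD8 over CD4 cells (2627 and 2721) they were 1693 and 1554 with DESeq2, 1741 and 1662 after thinning and 455 and 376 in non-cycling cells, and 1709 higher with no block. For Treg-origin over CD8 cells (2846 and 2874) they were 791 and 744 in non-cycling and 1595 and 1644 in cycling cells. For cells with over those without a Foxp3 or Ikzf2 UMI (140 and 149) there were 44 higher and 33 lower with DESeq2, 11 higher and 10 lower with the stricter antibody limits, 62 higher and 65 lower with thinning, 212 higher with all genes with any UMI, 66 higher and 55 lower with no replicate block. Leaving out a library gave 74 to 124 higher and 70 to 124 lower. Thinning gave 2013 higher with cycling in CD4 cells (3025), and 1275 higher and 849 lower in CD8 cells (2198 and 1618).

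Values that changed sign were those of genes with no call at the main settings, except Cd3d (0.023) and Lck (0.037) of CD8 over CD4 cells among non-cycling cells. Some of them gained a call under the other setting, as Lck did in Treg-origin over CD8 cells with the stricter antibody limits. With 1 joint fit, Trbc2 was -0.018 and Cd247 was -0.0053 in Treg-origin over CD8. With DESeq2, Zap70 was -0.016 and Lat was -0.028 in cycling CD8. With DESeq2 size factors, Zap70 was -0.016 and Lat was -0.030 in cycling CD8. With only Treg-origin cells with more Cd4 than Cd8 UMIs, Trbc2 was -0.022 in Treg-origin over CD8. With the stricter antibody limits, Lck was 0.074 and Zap70 was 0.027 in Treg-origin over CD4, Lck was 0.15 in Treg-origin over CD8, Cd247 was -0.045 and Zap70 was -0.25 in the Foxp3 or Ikzf2 comparison, the value was 0.0192 for the Trbc1 share (percentage points), CD8 minus CD4. With the stricter cell limits, Trbc1 was 0.037 and Lck was 0.054 in the Foxp3 or Ikzf2 comparison, Zap70 was -0.0069 in cycling CD8. With the barcodes of highest UMIs left out, Trbc2 was -0.0063 in Treg-origin over CD8, Zap70 was -0.0067 and Lat was -0.0042 in cycling CD8. With cycling cells only, Trbc1 was -0.010 and Trbc2 was -0.14 in Treg-origin over CD4, Trbc2 was -0.22 and Cd247 was -0.25 in Treg-origin over CD8. With thinning, Zap70 was 0.0037 in Treg-origin over CD4, Lck was 0.050 in Treg-origin over CD8, Trbc1 was 0.0048 in the Foxp3 or Ikzf2 comparison, Lat was -0.00039 in cycling CD8, the value was 0.318 for the Trbc1 share (percentage points), CD8 minus CD4. With all genes with any UMI, Trbc2 was -0.0066 in Treg-origin over CD4, Trbc2 was -0.039 and Cd247 was -0.027 in Treg-origin over CD8, Trbc1 was 0.020 and Lck was 0.024 in the Foxp3 or Ikzf2 comparison, Lat was 0.049 in cycling CD4. With no replicate block, Trbc1 was 0.021 in the Foxp3 or Ikzf2 comparison. With non-cycling cells only, Trbc1 was -0.0045 in Treg-origin over CD4, Trbc1 was 0.00897 in CD8 over CD4, Trbc2 was -0.12 in Treg-origin over CD8. Leaving out each library gave, in CD8 over CD4, Trbc2 -0.047 to 0.057, and in cycling CD4, Lat -0.012 to 0.0033, and in cycling CD8, Lat -0.025 to 0.055 and Zap70 -0.043 to 0.074, and in the Foxp3 or Ikzf2 comparison, Lck -0.027 to 0.009 and Trbc1 -0.088 to 0.15 and Zap70 -0.027 to 0.14, and in Treg-origin over CD4, Trbc1 -0.031 to 0.20 and Trbc2 -0.00019 to 0.14, and in Treg-origin over CD8, Cd247 -0.053 to 0.081 and Trbc2 -0.058 to 0.16.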

Other observations

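Transcripts of the delta constant gene Trdc, which marks gamma-delta T cells, were unevenly spread over the conventional CD8 cells. A Trdc UMI was found in 6 of 2600 CD8 cells in CD226KO, 89 of 2902 in TIGITKO, 249 of 3415 in DKO and 10 of 2098 in WT. Of the 249 DKO cells, 245 also held a beta constant and 248 a Trac UMI, and 120 held at least 3 Trdc UMIs, as did 5 of the 89 TIGITKO cells. Trac was at 641 CPM in these cells and at 468 CPM in the other DKO CD8 cells. Among cells with at least 10 beta UMIs, Trbc1 gave at most 10% of them in 78.7% of the DKO cells with Trdc (159 of 202, exact 95% interval 72.4% to 84.1%) and in 39.7% of those without (38.0% to 41.5%). In TIGITKO the shares were 51.3% (40 of 78, 39.7% to 62.8%) and 40.8% (38.8% to 42.7%).

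Beta variable genes were seen in few cells. Among the DKO CD8 cells with Trdc and any Trbv UMI, Trbv12-2 was found in 13 of 26 and Trbv13-2 in 10, while among those without Trdc Trbv2 was found in 110 of 355 and Trbv12-2 in 61. Among the TIGITKO cells with Trdc, Trbv2 was found in 16 of 20, and among those without in 36 of 267. The libraries with many such cells are both those labelled L004, each is 1 pool, and no test was made.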
